A study of Mus musculus with 18 samples.

Results

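The mitochondrial ribosomal protein genes were examined in RNA from isolated crypts of the colon epithelium in WT and Ern2-/- mice. They were taken as every symbol in the gene count table that starts with Mrpl or Mrps and a digit, leaving out pseudogene symbols, which gave 77 of 24047 genes. By name 48 are Mrpl genes of the large subunit and 29 are Mrps genes of the small subunit. Exceptions to the names are known from structures of the ribosome, since the products of Mrps30 and Mrps18a sit in the large subunit, and the classes used here hold 50 large-subunit and 27 small-subunit genes.

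All mice were C57BL/6, and there were 6 groups of 3 libraries. WT GF and Ern2-/- GF mice were raised without microbes. WT GF-Colonized and Ern2-/- GF-Colonized mice were born germ free and received the cecal microbes of conventional WT mice 14 days before collection. WT CONV and Ern2-/- CONV mice were conventionally raised with specific pathogen-free microbes. Ern2 encodes IRE1β, a sensor of endoplasmic reticulum stress restricted to mucosal epithelium, and in Ern2-/- mice the deletion is in the germline, not limited to the epithelium. The study asked how microbes shape the colon epithelium with and without this gene, and ages were not given for these libraries.

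Mitochondria keep their own ribosome, which translates the few messages of mitochondrial DNA, all of them for subunits of the respiratory chain and ATP synthase. Its RNAs come from mitochondrial DNA, but every one of its proteins is encoded in the nucleus, made in the cytosol and imported. Some of these proteins descend from the bacterial ribosome and others were added in mitochondria. In the colon, differentiated epithelial cells draw on mitochondrial oxidation of microbial butyrate, and dividing crypt cells must build new mitochondria.

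Library totals ran from 5865619 to 23154481 counts, and the 77 genes held between 2802 and 4710 of every 1000000 counts (counts per 1000000, CPM). Epithelial identity was clear, since all 8 epithelial markers were measured and summed to between 150294 and 236941 normalized counts (counts divided by the library's size factor) per library. Only 3 of 16 immune, 2 of 14 mesenchymal and 3 of 6 endothelial markers averaged 10 or more normalized counts, and their lists summed to 108 to 402, 237 to 610 and 46.8 to 180. Ern2 itself did not separate the genotype labels: 3 libraries labelled Ern2-/- (GF replicates 1 and 3 and GF-Colonized replicate 1) had 2567 to 3336 normalized counts, at or above the lowest WT value of 1909, and the other 6 had 386 to 1885. The deleted part of the gene is not given in the labels, so these counts may not test the label. Sex read from X- and Y-linked counts also differed between groups, with 0 of 3 males in WT GF, 2 in WT GF-Colonized, 1 in WT CONV, 2 in Ern2-/- GF, 2 in Ern2-/- GF-Colonized and 3 in Ern2-/- CONV.

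The 77 genes lie on 17 chromosomes (mm10), and the stretches just upstream of several that differed between groups are shown here because RefSeq promoter windows (250 bases before to 50 after the start, GRCm38.p6) matched 68 of them. Each printed stretch is the one nearest the start that no annotated exon covers, up to 100 bases, written 5′ to 3′ on the gene's own strand. Capitals mark matches, on either strand, to any of 5 letter strings: GCGCATGC (NRF1), CCGGAAG (ETS family), AAGATGGC (YY1), CACGTG (E-box) and GGGCGG (GC box), none of which contains another. The first 4 genes are among those called in the WT comparisons below, Mrps18a and Mrps27 are called genes with an ETS string here, and Mrpl22 holds an NRF1 and an ETS string close together. The last line lies between the divergent RefSeq starts of Mrps11 and Mrpl46, which share this stretch on opposite strands. The annotated Mrpl46 gene (chr7:78775236-78783531) spans the stretch, though no exon covers it.
Mrpl11, chr19:4962056-4962146, plus strand: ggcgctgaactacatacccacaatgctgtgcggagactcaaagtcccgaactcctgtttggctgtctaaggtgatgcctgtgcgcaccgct
Mrpl16, chr19:11770291-11770390, plus strand: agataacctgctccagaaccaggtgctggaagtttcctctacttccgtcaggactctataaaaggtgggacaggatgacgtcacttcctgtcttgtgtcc
Mrpl12, chr11:120484513-120484612, plus strand: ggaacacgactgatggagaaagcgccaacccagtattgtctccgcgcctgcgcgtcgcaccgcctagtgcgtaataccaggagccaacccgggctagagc
Mrps12, chr7:28741822-28741921, minus strand: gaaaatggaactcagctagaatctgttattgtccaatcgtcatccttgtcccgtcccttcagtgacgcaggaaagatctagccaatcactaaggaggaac
Mrps18a, chr17:46110886-46110985, plus strand: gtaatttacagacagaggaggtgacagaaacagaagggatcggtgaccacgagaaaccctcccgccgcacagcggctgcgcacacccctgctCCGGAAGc
Mrps27, chr13:99344706-99344785, plus strand: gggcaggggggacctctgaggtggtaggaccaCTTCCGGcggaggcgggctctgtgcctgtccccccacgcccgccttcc
Mrpl22, chr11:58171561-58171660, plus strand: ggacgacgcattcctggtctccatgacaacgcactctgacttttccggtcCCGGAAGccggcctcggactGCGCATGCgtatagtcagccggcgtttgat
Mrps11 (shared with Mrpl46), chr7:78783090-78783118, plus strand: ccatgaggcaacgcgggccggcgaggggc

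Over the whole promoter windows, the ETS string was held by 25 of 68 genes (36.8%, against 9.93% of all 27025 genes with a window). The YY1 string was held by 12 (17.6% against 3.19%) and the NRF1 string by 8 (11.8% against 3.05%). At least 1 of these 3 strings occurred in 37 of the 68 (54.4% against 14.9%). The GC box was held by 34 (against 38.2% of all genes) and the E-box by 5 (7.35% against 8.09%). Among the 16738 genes with a window that are in the count table, the shares were 12.8% for the ETS, 3.63% for the YY1 and 4.03% for the NRF1 string, 50.1% for the GC box and 9.18% for the E-box. In the first window of each gene, the middle of the YY1 matches lay at a median of 20 bases after the start, and that of the ETS matches at a median of −14.5 relative to it. These are counts of letters and not of bound sites.

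Levels differed widely within the family although its products join 1 particle. Mrpl12, whose product forms the stalk that recruits elongation factors, had the highest mean over the 18 libraries, 3223 normalized counts, followed by Mrpl24 with 1813 and Mrpl42 with 1480. The lowest were Mrpl23 with 93.0, Mrps33 with 101 and Mrps36 with 148. Mrps36 is a known misfit, since its product belongs to the 2-oxoglutarate dehydrogenase complex. Per kilobase of annotated exon, the level ran from 19.0 for Mrpl23 to 2104 for Mrpl12, with a median of 329 over the 77 genes. Mrpl23 and Mrps36 have named pseudogenes that could take or lend reads, as have 2 other genes of the family. The coefficient of variation over the 18 libraries was 8.12% for Mrpl39 at the least and 27.3% for Mrpl12 at the most.

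The group mean was lowest of the 6 groups in WT GF for 54 of the 77 genes, and in no gene was it highest there. Summed over the family, WT GF libraries had 3531, 3673 and 2802 CPM, WT GF-Colonized libraries 4367, 4055 and 4145, and WT CONV libraries 4189, 4498 and 4235. The WT GF values lay below all 6 of the other WT values. In the Ern2-/- mice the same sums were 3518, 3957 and 3945 in GF, 3986, 3682 and 4295 in GF-Colonized, and 3511, 3989 and 4710 in CONV, and the 3 groups overlapped. The libraries at the extremes were WT GF replicate 3, which was the lowest of the 18 in 43 genes, and Ern2-/- CONV replicate 3, which was the highest in 35 and had the fewest counts of all libraries. In such bulk RNA, fewer cells of a type and less RNA per cell cannot be told apart.

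**Figure D1:**
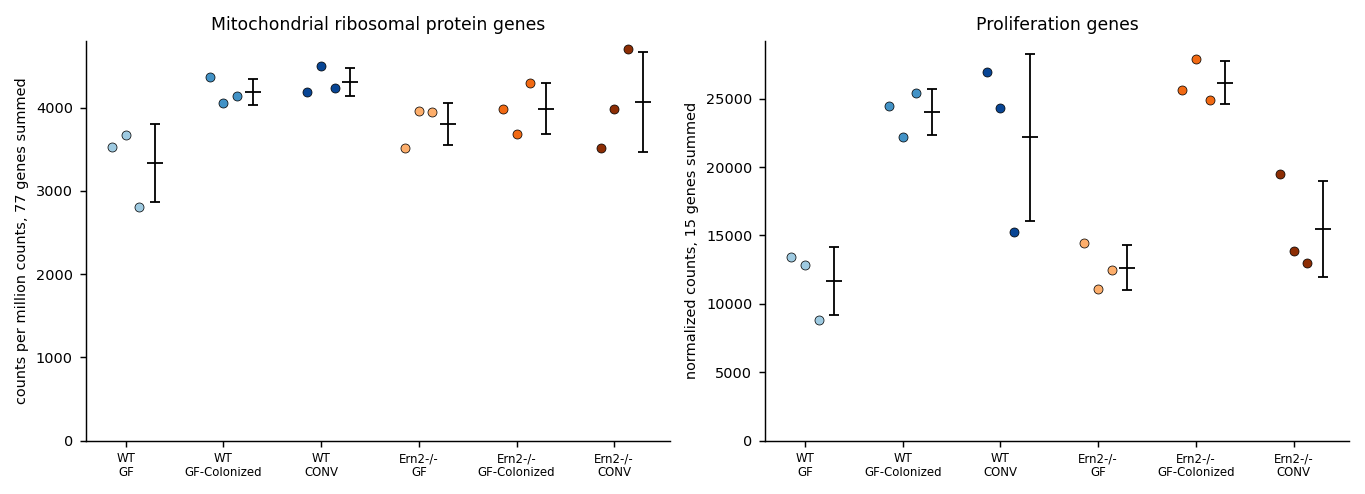
Left, CPM summed over the 77 mitochondrial ribosomal protein genes in each library (points) by group, with the mean and SD of 3 libraries (bars). The 3 WT GF libraries (2802 to 3673) lie below all other WT libraries (4055 to 4498), while the Ern2-/- groups overlap. Right, the same for normalized counts summed over 15 proliferation genes, which were higher in GF-Colonized than in GF libraries of both genotypes.

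To ask how lifelong microbes relate to the family in WT mice, WT CONV was compared with WT GF. Of the 77 genes, 6 were higher and none was lower at an adjusted p under 0.01 (DESeq2 Wald test, Benjamini-Hochberg over all genes tested), a share of 7.79% against 5.56% of all genes tested that were higher. The count of calls is thus near the background, while most of the family lay to one side: the log2 fold change was positive in 71 of 77 and its median was 0.31, against 0.00 for all genes tested. In 45 genes every WT CONV library was above every WT GF library and in none was every one below, where 18.6% of all genes with a mean of 50 or more normalized counts were not overlapping and higher. The 77 genes do not vary independently of each other, here or in any comparison below. Their common direction is thus 1 observation on the libraries compared. By subunit the median was 0.34 in the large and 0.30 in the small, and 0.36 in the 44 genes numbered as having a bacterial homologue against 0.29 in the other 33. edgeR called none of the 77 at an adjusted p under 0.01, where it called 0.175% of all genes it tested. It put 35 at an unadjusted and 4 at an adjusted p under 0.05, thresholds for which no share of all genes is given here. DESeq2 also called 0 with sex or library total as a term. WT GF held no male and WT CONV totals lay below all WT GF totals, so these fits can hardly separate sex or depth from group. Leaving out any 1 of WT GF replicates 1 and 3 and WT CONV replicates 1 and 2 gave 0 calls. There were 3 without WT GF replicate 2 and 10 without WT CONV replicate 3. The median stayed between 0.24 and 0.39 in all these fits. Of the 14 mesenchymal markers, Acta2 and Des, of muscle cells, were higher in WT CONV, with means of 29.1 and 26.7 normalized counts against 1.67 and 0.95 in WT GF (adjusted p 0.00419 and 0.00349), and Pdgfrb, a receptor of pericytes and fibroblasts, was lower, with 133 against 339 (adjusted p 0.00214). The list summed to 368 to 442 in WT GF and 251 to 593 in WT CONV, and Pdgfrb made up most of the WT GF sum. The median log2 fold change of the 14 markers was 3.29 in WT CONV against WT GF. Only 2 of the 14 averaged 10 or more normalized counts over all libraries. The epithelial markers summed to 175651 to 206295 in WT GF and, without overlap, to 150294 to 174411 in WT CONV, while 1 of the 8, Krt18, was higher in WT CONV (0.78, adjusted p 1.27e-04). The part of these lists in the result was not tested.

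Mrpl11 (chr19:4962147-4966999) had the smallest adjusted p of the 6. Its product lies at the base of the stalk, where elongation factors dock. Normalized counts were 509, 571 and 464 in WT GF and 808, 903 and 880 in WT CONV, with no overlap between the groups. The log2 fold change was 0.74 (SE 0.16, adjusted p 1.6e-04). Mrpl12 (chr11:120484613-120489065), the stalk protein itself, had 2334, 2807 and 2037 in WT GF and 3543, 3952 and 4162 in WT CONV, a log2 fold change of 0.69 ± 0.19 (SE) at an adjusted p of 0.00403. Both genes were higher in every conventional WT library. Mrpl10, the anchor of the stalk, named after its values were seen, was not called (0.33, adjusted p 0.173). Mrpl50, a large-subunit protein added in mitochondria, had 771, 829 and 737 against 1089, 1139 and 1200, a log2 fold change of 0.54 ± 0.14 (SE) at an adjusted p of 0.00138. Mrpl53, another mitochondrial addition to the large subunit, had 399, 472 and 334 against 689, 693 and 614, a log2 fold change of 0.72 ± 0.20 (SE) at an adjusted p of 0.00454. Both genes again showed no overlap. Mrps7, a ribosomal RNA-binding protein of the small-subunit head, had 826, 804 and 625 against 1231, 1139 and 1152, a log2 fold change of 0.63 ± 0.18 (SE) at an adjusted p of 0.00576. Mrpl16, a large-subunit protein of bacterial descent, had 427, 446 and 389 against 601, 610 and 566, a log2 fold change of 0.49 ± 0.15 (SE) at an adjusted p of 0.00963.

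To ask whether microbes received 14 days before collection were followed by the same difference, WT GF-Colonized was compared with WT GF, which shares its control libraries with the comparison above. Of the 77 genes, 11 were higher and none was lower, a share of 14.3% against 9.13% of all genes tested. The log2 fold change was positive in 69 and its median was 0.29, against −0.01 for all genes tested. In 48 genes all WT GF-Colonized libraries were above all WT GF libraries, and in none below, against 23.7% of all genes with a mean of 50 or more. This common direction is again 1 observation on the libraries compared. The medians were 0.30 in the large and 0.28 in the small subunit. edgeR called none at an adjusted p under 0.01, where it called 4.94% of all genes it tested. It put 46 at an unadjusted and 25 at an adjusted p under 0.05, again without a share of all genes to set beside them. DESeq2 called 0 with sex and 1 with library total as a term. WT GF held no male and WT GF-Colonized only 1 female, so the sex fit cannot separate sex from group. There were 3 calls without WT GF-Colonized replicate 1, 4 without replicate 3 and 8 to 15 without any other library. The medians of all these fits ran from 0.21 to 0.35. No mesenchymal marker was called in this comparison, but the list summed to 237 to 321 in WT GF-Colonized, below the 368 to 442 of WT GF, and its part in the result was not tested.

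Mrps12, the protein of the decoding centre of the small subunit, had the smallest adjusted p. Its normalized counts were 469, 504 and 376 in WT GF and 779, 679 and 691 in WT GF-Colonized, a log2 fold change of 0.68 ± 0.16 (SE) at an adjusted p of 3.33e-04. Mrpl38, a mitochondrial addition to the large subunit, had 768, 747 and 533 against 1211, 1027 and 1118, a log2 fold change of 0.72 ± 0.18 (SE) at an adjusted p of 4.72e-04. Neither gene overlapped between the groups. Mrps11, of the small-subunit platform, had 264, 310 and 240 against 446, 386 and 432, a log2 fold change of 0.64 ± 0.17 (SE) at an adjusted p of 0.00107. Its divergent neighbour Mrpl46, named after its values were seen, was not called (0.49, adjusted p 0.0112). Annotated exons of the pair overlap on opposite strands. Mrps18a, 1 of 3 mammalian relatives of bacterial S18 and the one found in the large subunit, had 529, 580 and 519 against 717, 782 and 741, a log2 fold change of 0.47 ± 0.13 (SE) at an adjusted p of 0.00227.

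Mrpl11, Mrpl16, Mrpl53 and Mrps7 were called in both WT comparisons. In WT GF-Colonized their log2 fold changes were 0.58 for Mrpl11 (adjusted p 4.08e-04), 0.46 for Mrpl16 (adjusted p 0.00675), 0.56 for Mrpl53 (adjusted p 0.00711) and 0.58 for Mrps7 (adjusted p 0.00134). Of the 6 fits that left out 1 library there, 6 called Mrpl11, 4 Mrps7, 1 Mrpl53 and 0 Mrpl16, whose log2 fold change stayed between 0.40 and 0.50. For WT CONV such fits called Mrpl11 and Mrpl53 in 2 of 6 and Mrpl16 and Mrps7 in 1 of 6. The remaining called genes, named here because they complete the count, were Mrps27 with 0.46 (adjusted p 0.00231), Mrpl19 with 0.45 (adjusted p 0.00323) and Mrps25 with 0.52 (adjusted p 0.00357). Annotated exons of Mrps7, Mrpl12, Mrpl53, Mrps11, Mrps27, Mrpl19 and Mrps25 overlap those of another gene on the opposite strand, and the strand setting of the counting is not given in the sources used here. Mrpl53 also overlaps Gm42688 on its own strand, as Mrps6, described below, does Gm49711 and Slc5a3, and reads of such pairs cannot be separated by strand. Mrpl11, Mrpl16, Mrpl38, Mrpl50, Mrps12 and Mrps18a overlap no other exon.

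**Figure D2:**
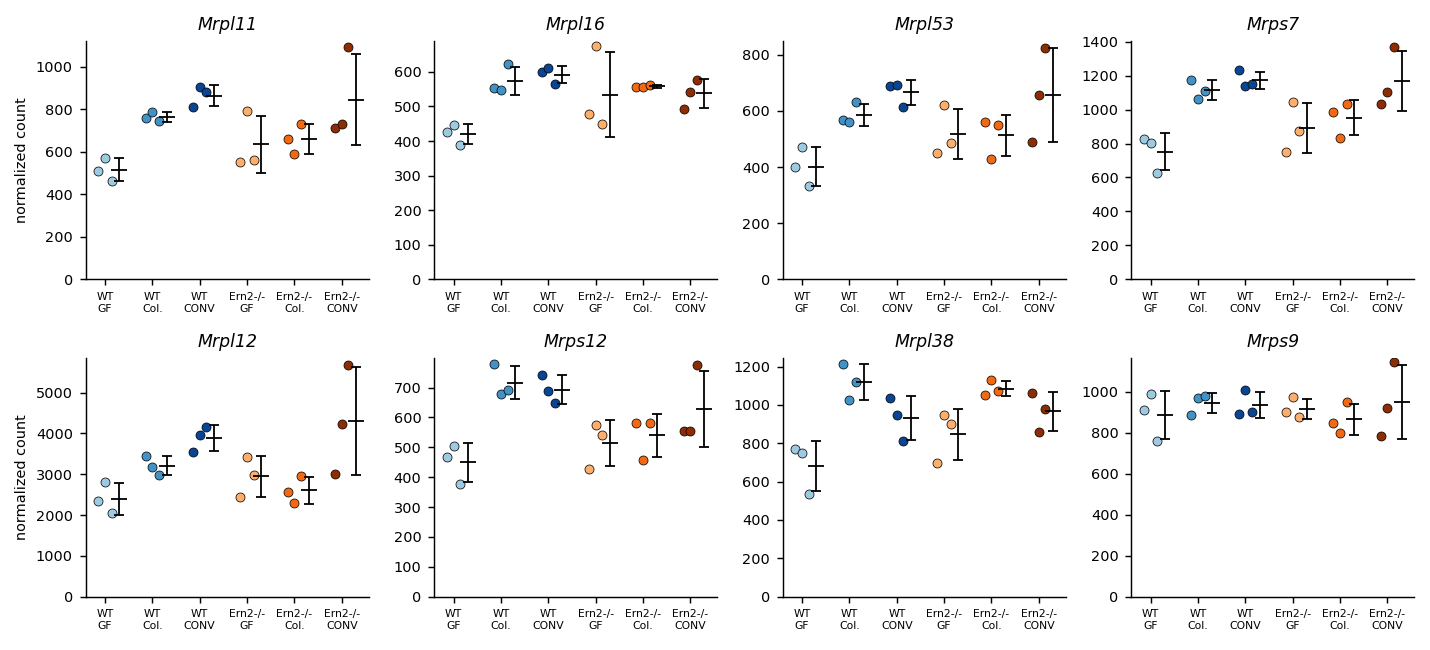
Normalized counts of 8 genes in each library (points, from 0) by group, with the mean and SD of 3 libraries (bars). Mrpl11, Mrpl16, Mrpl53 and Mrps7 were called in both WT comparisons with WT GF, Mrpl12, Mrps12 and Mrpl38 in one of them, and Mrps9 in none. In the first 7 genes the WT GF points sit below the points of the called WT group, and the range of the Ern2-/- GF points overlaps those of both other Ern2-/- groups, except in Mrpl38, where it lies below the Ern2-/- GF-Colonized points.

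The size of the difference varied among members. Mrps9, a small-subunit protein, had the smallest range of log2 fold changes over the 9 comparisons, none beyond 0.13 in size. Mrps30, Mrpl51 and Mrps35 stayed within 0.23, a value that Mrps30 reached in WT CONV against WT GF, where the groups did not overlap although the gene was not called. Mrps36 was at −0.25 in WT CONV and −0.12 in WT GF-Colonized against WT GF, and neither passed the test. The other S18 relatives were not called either: Mrps18b had log2 fold changes of 0.01 in WT CONV and 0.30 in WT GF-Colonized, the latter without overlap between the groups, and Mrps18c of 0.19 and 0.05. The lowest value in both comparisons was that of Mrps6, −0.38 (adjusted p 0.282) and −0.44 (adjusted p 0.0678). Mrps6 had 1062, 1110 and 723 normalized counts in WT GF and 682, 781 and 654 in WT GF-Colonized, so that the groups overlapped through WT GF replicate 3. It is named after its values were seen.

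**Figure D3:**
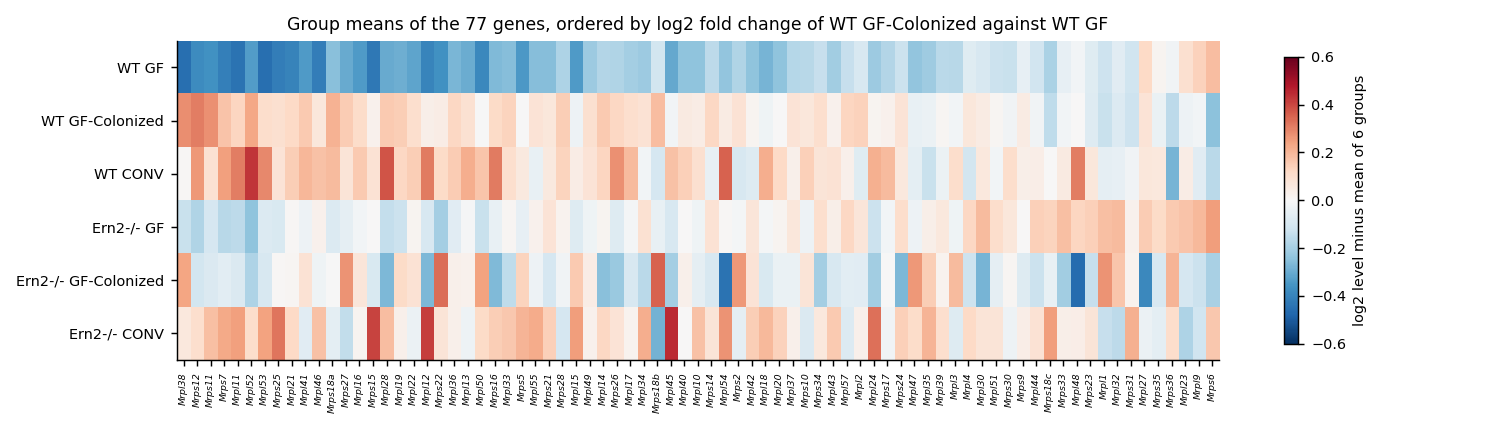
Group means of log2 normalized counts of the 77 genes (columns), each minus the mean of its 6 groups (rows), ordered by the log2 fold change of WT GF-Colonized against WT GF from Mrpl38 at the left to Mrps6 at the right. Blue is below and red above the gene's mean, and the WT GF row is blue for most genes.

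Between conventional and colonized WT mice no member was called, where 0.117% of all genes tested were called. The median log2 fold change was 0.05, with 48 of 77 positive, 1 gene at an unadjusted p under 0.05 and a lowest adjusted p of 0.53 (Mrpl2). edgeR called none, and put none at an unadjusted p under 0.05. The median SE was 0.15 on the log2 scale, which bounds what differences could be seen.

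Between Ern2-/- CONV and Ern2-/- GF none of the 77 genes was called, where 4.36% of all genes tested were, and the median log2 fold change was 0.05 with 46 positive. This median moved to 0.17 with 66 positive without Ern2-/- GF replicate 2, and to 0.14 with 58 positive and 1 gene called without Ern2-/- CONV replicate 1. It turned to −0.02 with 33 positive without Ern2-/- GF replicate 1 and to −0.04 with 29 positive without Ern2-/- CONV replicate 3. With library total as a term it was −0.10 with 15 positive. It was −0.17 with 22 positive without the libraries with Ern2 in the WT range, which leaves Ern2-/- GF replicate 2 as the only germ-free library. There was 1 gene at an unadjusted p under 0.05 by DESeq2 and 1 by edgeR, which called none, and the lowest adjusted p was 0.221 (Mrpl45). In no gene were all Ern2-/- CONV libraries above all Ern2-/- GF libraries, against 11% of all genes with a mean of 50 or more, and in 2 all were below, against 13%. Mrpl12 had 2437, 3420 and 2981 normalized counts in Ern2-/- GF and 3014, 4230 and 5670 in Ern2-/- CONV, overlapping groups with a log2 fold change of 0.54 (adjusted p 0.278). The median SE in this comparison was 0.25, wider than the 0.19 of the WT comparison. Of the 14 mesenchymal markers 1 was higher and 1 lower in Ern2-/- CONV, with a median log2 fold change of 1.83. Only 2 of the 14 averaged 10 or more normalized counts over all libraries. The list summed to 240 to 582 in Ern2-/- CONV and 392 to 610 in Ern2-/- GF, and its part in the result was not tested.

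Between Ern2-/- GF-Colonized and Ern2-/- GF none was called either, where 7.22% of all genes tested were. The median was −0.07 with 29 positive, 5 genes were at an unadjusted p under 0.05, and the lowest adjusted p was 0.0644 (Mrps6, −0.44). edgeR called none and put 5 at an unadjusted p under 0.05. All libraries of the colonized group were higher in 5 genes, against 16.2% of all genes with a mean of 50 or more, and lower in 8, against 18.6%. Mrpl11 had 553, 790 and 561 in Ern2-/- GF and 660, 587 and 732 in Ern2-/- GF-Colonized, a log2 fold change of 0.05. Mrps12 had 429, 576 and 540 against 582, 457 and 582, a log2 fold change of 0.07. The groups overlapped in both genes. Among other genes called in WT GF-Colonized, Mrpl38 had 696, 946 and 899 against 1052, 1128 and 1074 (0.35, adjusted p 0.243), and Mrpl19 had 560, 611 and 637 against 696, 731 and 712 (0.24, adjusted p 0.382). Both were higher in every colonized library, as was Mrps27 (0.30, adjusted p 0.359), and none of these passed the test. The sign of this small median turned with the scaling, to 0.07 with library totals as size factors, and to 0.09, with 1 gene called, without Ern2-/- GF replicate 2. Without the libraries with Ern2 in the WT range it was −0.30 with 11 positive, again with Ern2-/- GF replicate 2 as the only germ-free library. Of the other cell markers, 1 endothelial and 1 mesenchymal gene were lower in Ern2-/- GF-Colonized. The endothelial list summed to 46.8 to 80.5 there and 106 to 143 in Ern2-/- GF. The mesenchymal list summed to 245 to 335 against 392 to 610, and neither list overlapped. The part of these lists in the result was not tested.

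Between Ern2-/- CONV and Ern2-/- GF-Colonized the median was 0.14 with 52 positive, and none was called, where 8.37% of all genes tested were. The sign turned with the scaling, to −0.03 with 37 positive and 2 genes called with library totals as size factors, and to −0.03 with 31 positive with library total as a term. The smallest adjusted p was 0.0268 (Mrpl12, 0.73), and 9 genes were at an unadjusted p under 0.05 by DESeq2 and 10 by edgeR, which called none. Mrps18b lay the other way, at −0.60 (adjusted p 0.044), with 446, 442 and 504 normalized counts in Ern2-/- GF-Colonized and 375, 258 and 273 in Ern2-/- CONV. These libraries differed in depth, with 5865619 and 7084267 counts in 2 of the Ern2-/- CONV libraries. Without Ern2-/- CONV replicate 1 the comparison called 7 of the 77 genes. The 8.37% belongs to the main fit, and no share of all genes is given here for the fit with 7 calls. Of the mesenchymal markers Col3a1 and Myh11 were higher in Ern2-/- CONV, and the median log2 fold change of the list was 2.56. The list summed to 245 to 335 in Ern2-/- GF-Colonized and 240.2 to 582 in Ern2-/- CONV. The endothelial marker Pecam1 and the epithelial markers Krt20 and Vil1 were also higher, and their lists did not overlap in sum, with 46.8 to 80.5 against 88.3 to 146 for the endothelial and 177901 to 200472 against 214406 to 233262 for the epithelial markers. Of 15 proliferation genes 7 were lower in Ern2-/- CONV. The part of these lists in the result was not tested.

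**Figure D4:**
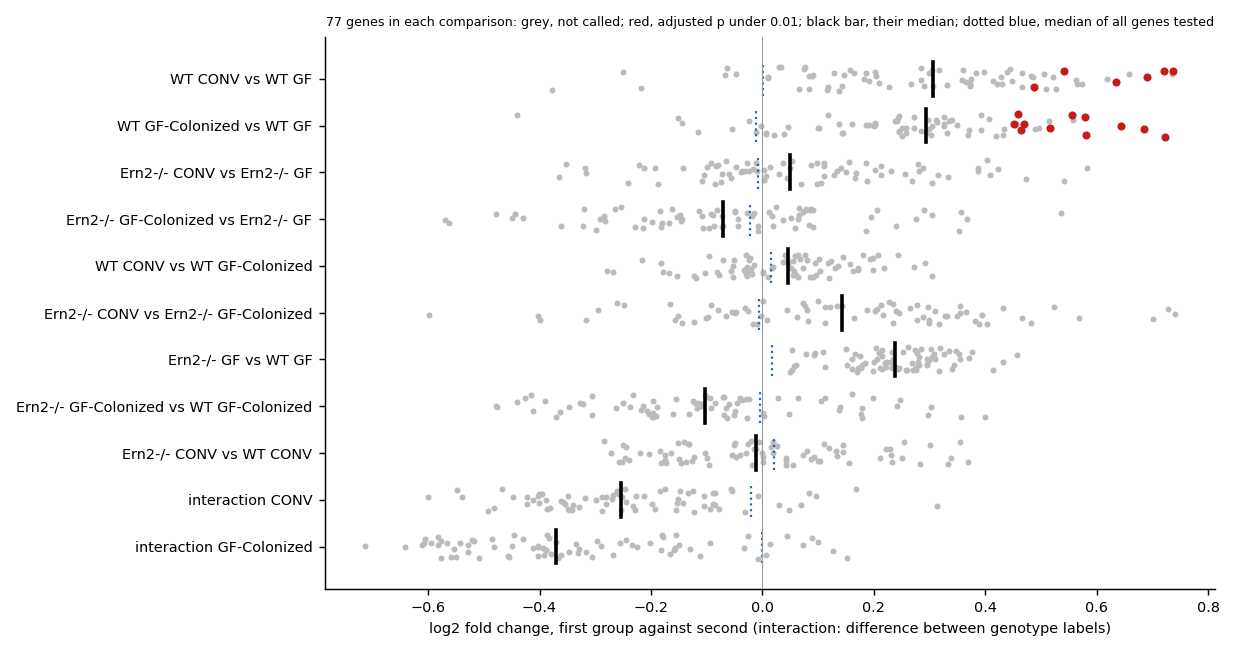
Log2 fold changes of the 77 genes (points) in each of the 9 comparisons, first group against second, and in the 2 interaction fits. Red points passed an adjusted p under 0.01 by DESeq2, black bars are the medians of the 77 and dotted blue bars the medians of all genes tested. The called genes all lie on the right, in the 2 comparisons of WT mice with WT GF, and all 77 points are above 0 for Ern2-/- GF against WT GF.

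The genotype labels were compared within each microbial state. In germ-free mice all 77 log2 fold changes of Ern2-/- GF against WT GF were above 0, from 0.05 to 0.46, with a median of 0.24 against 0.02 for all genes tested. None was called, where 0.035% of all genes tested were; 2 genes were at an unadjusted p under 0.05 by each of DESeq2 and edgeR, which called none, and the lowest adjusted p by DESeq2 was 0.9999. In 13 genes all Ern2-/- GF libraries were above all WT GF libraries, against 3.23% of all genes with a mean of 50 or more, and in none below. The size of this offset rested in large part on Ern2-/- GF replicate 2, the library with the lowest Ern2 count (386), in which 68 of 77 genes were above their mean over all libraries. Without it the median was 0.10 and 66 genes were positive, and without WT GF replicate 3 the median was 0.17 and 71 were positive. With sex as a term the median was 0.14 and 68 were positive. WT GF held no male and replicate 3 was the only female of Ern2-/- GF, so that fit cannot separate sex from group. Without the libraries with Ern2 in the WT range the median was 0.50 with 76 positive. That fit keeps only replicate 2 of Ern2-/- GF. The 77 genes do not vary independently of each other, so their common sign is 1 observation on 6 libraries.

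After colonization the sign was mostly the other way. The median of Ern2-/- GF-Colonized against WT GF-Colonized was −0.10 with 20 positive, and no gene was called, where 1.36% of all genes tested were. The median was −0.05 with 23 positive without Ern2-/- GF-Colonized replicate 2, and −0.06 with 25 positive with library totals as size factors. By DESeq2 16 genes were at an unadjusted p under 0.05, and by edgeR 19, with none called. No share of all genes is given at this threshold. The smallest adjusted p was 0.0657 (Mrpl27, −0.48). In 22 genes all Ern2-/- GF-Colonized libraries were below all WT GF-Colonized libraries, against 14.2% of all genes with a mean of 50 or more, and in 8 above, against 17.2%. Mrps12 was 1 of the 22, with 582, 457 and 582 against 779, 679 and 691 normalized counts, a log2 fold change of −0.41 (adjusted p 0.0701). The endothelial markers summed to 46.8 to 80.5 in Ern2-/- GF-Colonized and, without overlap, to 99.2 to 135 in WT GF-Colonized, and none of them was called. The part of this list in the result was not tested.

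In conventional mice the median of Ern2-/- CONV against WT CONV was −0.01 with 36 positive. It was −0.12 with 20 positive with library totals as size factors, and −0.12 with 21 positive without Ern2-/- CONV replicate 3. The sign turned to 0.06 without replicate 1 and 0.03 without replicate 2 of Ern2-/- CONV, each with 44 positive. No gene was called, where 2.89% of all genes tested were, and none was at an unadjusted p under 0.05 by DESeq2 or edgeR. Mrps18a had 618, 618 and 626 normalized counts in Ern2-/- CONV against 741, 735 and 730 in WT CONV, without overlap, and a log2 fold change of −0.24 (adjusted p 0.452). The epithelial markers summed to 214406 to 233262 in Ern2-/- CONV and, without overlap, to 150294 to 174411 in WT CONV, and none was called. The part of this list in the result was not tested.

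Whether the difference with microbes itself differed between the genotype labels was tested by an interaction term. For CONV the median interaction was −0.25 with 7 of 77 positive, and for GF-Colonized −0.37 with 8 positive, so that most estimates were smaller in Ern2-/- mice. No member was called in either, where 0.178% and 0.028% of all genes tested were, and the lowest adjusted p values were 0.517 and 0.844. Over all genes edgeR called 4 in Ern2-/- CONV and 27 in Ern2-/- GF-Colonized against Ern2-/- GF, 35 between Ern2-/- CONV and Ern2-/- GF-Colonized, 1 between the genotype labels in GF-Colonized mice and 0 between the genotype labels in GF and CONV mice, between WT CONV and WT GF-Colonized and in both interactions. At an unadjusted p under 0.05 there were 2 genes for CONV by both DESeq2 and edgeR, and 19 for GF-Colonized by both, with none called by edgeR. No share of all genes is given at this threshold. Among the genes named above, Mrps12 had the smallest p of either fit, for GF-Colonized, with −0.61 (SE 0.25, adjusted p 0.844). A difference between genotypes in single members was therefore not established at this size of study. Without Ern2-/- GF replicate 2 the medians were −0.11 and −0.19. When the 3 libraries with Ern2 in the WT range were left out they were −0.48 and −0.59. Those fits keep only replicate 2 of Ern2-/- GF.

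The other genes of mitochondrial translation were read from lists of the pathway, and their counts stand against the 5.56% and 9.13% of all genes tested that were higher in WT CONV and WT GF-Colonized than in WT GF. Of 6 mitoribosomal genes with other names, 2 were higher in both WT comparisons with WT GF. They were Gadd45gip1, a large-subunit protein, with log2 fold changes of 0.93 in WT CONV and 0.76 in WT GF-Colonized (adjusted p 9.67e-05 and 8.81e-05), and Chchd1, a small-subunit protein, with 1.15 and 0.90 (adjusted p 7.8e-04 and 1.12e-05). The medians of these 6 genes were 0.35 and 0.26, and in Ern2-/- mice 0.10 and −0.08. Both genes were named after their values were seen.

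Of 23 assembly factors, 1 was higher in WT CONV and 2 in WT GF-Colonized. Wbscr16 (also Rcc1l, which acts in mitoribosome assembly) had log2 fold changes of 0.82 (adjusted p 1.3e-07) and 0.62 (adjusted p 4.45e-05), and C1qbp, named after its values were seen, 0.46 in WT GF-Colonized (adjusted p 0.00397). None of the 14 translation factors was called in any of the 9 comparisons, with medians of 0.07 and 0.11 in the WT comparisons. Of 17 mitochondrial tRNA synthetases 6 were higher in WT GF-Colonized and none in WT CONV. Vars2, the valyl enzyme, had the smallest adjusted p of the 6, with a log2 fold change of 0.47 (adjusted p 0.00164). Lars2, the leucyl enzyme, went its own way. It was higher in Ern2-/- CONV than in Ern2-/- GF (1.49, adjusted p 3.02e-07) and lower in Ern2-/- GF than in WT GF (−1.13, adjusted p 0.00174). Its means were 13948 normalized counts in Ern2-/- CONV, 4966 in Ern2-/- GF and 10944 in WT GF, against 894 for Vars2 in WT GF-Colonized. Whether all of these counts came from Lars2 was not tested.

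Of 11 regulators, Ppargc1a, the coactivator PGC-1α that promotes mitochondrial biogenesis, was lower with microbes. Its log2 fold change was −1.40 in WT GF-Colonized (adjusted p 3.91e-27), −1.40 in WT CONV (adjusted p 7.57e-05) and −1.03 in Ern2-/- GF-Colonized (adjusted p 0.00496), each against the germ-free group of its genotype. In Ern2-/- CONV it was −1.23 and did not pass (adjusted p 0.0124). Its direction was thus opposite to that of the ribosomal proteins in WT mice. Myc, a transcription factor that drives ribosome and mitochondrial gene programmes, was lower in Ern2-/- GF-Colonized than in WT GF-Colonized (−0.63, adjusted p 0.00758). Ppargc1b, a related coactivator named after its values were seen, was higher in Ern2-/- CONV than in Ern2-/- GF-Colonized (0.89, adjusted p 0.00863). Looked up by symbol, 0 of the 13 messages of mitochondrial DNA were found in the count table, so they could not be analysed here.

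**Figure D5:**
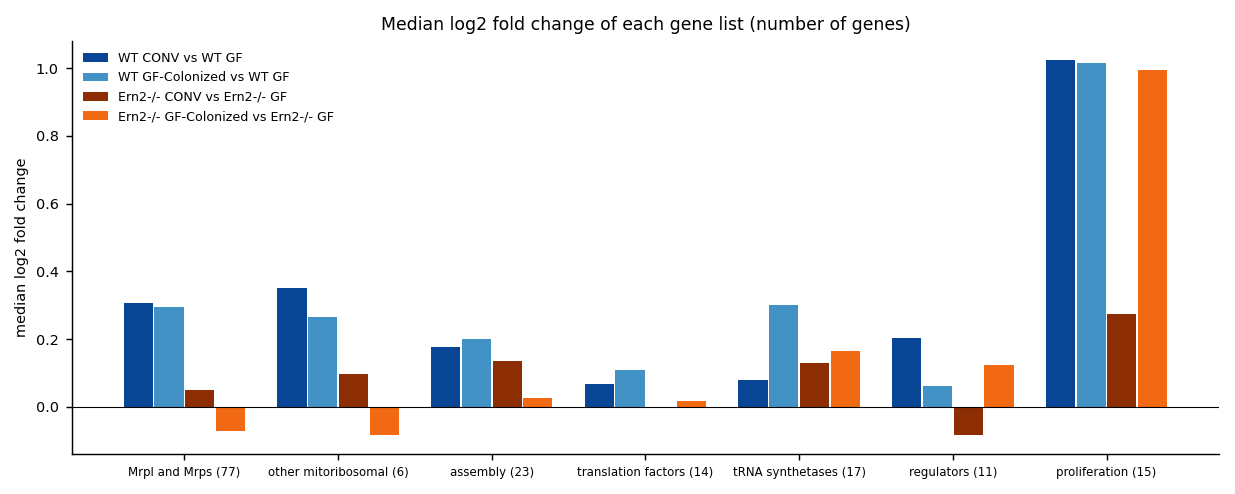
Median log2 fold change (bars from 0) of the 77 genes and of 6 further gene lists, with the number of genes in brackets, in the 4 comparisons of a group with microbes against the germ-free group of its genotype. For the 77 genes the WT bars stand at 0.31 and 0.29 and the Ern2-/- bars at 0.05 and −0.07, while the proliferation bars for GF-Colonized stand at 1.02 and 0.99 in WT and Ern2-/-.

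Of 15 proliferation genes, 9 were higher in WT CONV, 15 in WT GF-Colonized and 13 in Ern2-/- GF-Colonized against their germ-free groups, and none was called between Ern2-/- CONV and Ern2-/- GF. Between Ern2-/- CONV and Ern2-/- GF-Colonized 7 were lower, among them Bub1, of the spindle checkpoint (−1.10, adjusted p 9.59e-05), Cdk1, the mitotic kinase (−0.69, adjusted p 8.06e-04), and Mcm6, of the replicative helicase (−0.90, adjusted p 0.00125). Their summed normalized counts were 8830 to 13418 in WT GF, 22181 to 25416 in WT GF-Colonized and 15277 to 26916 in WT CONV. In Ern2-/- mice they were 11095 to 14415 in GF, 24912 to 27927 in GF-Colonized and 13018 to 19498 in CONV. Mcm3, of the replicative helicase, rose by a log2 fold change of 1.70 in WT GF-Colonized (adjusted p 9.33e-15) and 1.24 in Ern2-/- GF-Colonized (adjusted p 3.43e-12), where the medians of the 77 genes were 0.29 and −0.07. The part of crypt cell proliferation, of sex and of library depth in the level of the family was not tested. Fits with library total or sex as a term called no member in WT CONV, and 1 and 0 in WT GF-Colonized. Their medians were between 0.24 and 0.36. WT GF held no male, and replicate 2 was the only female of WT GF-Colonized, so the sex fit there cannot separate sex from group. WT CONV totals (8198204 to 15877968 counts) lay below all WT GF totals (19255177 to 23154481). Depth and group can thus hardly be separated in that comparison.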

How the data were processed

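RNA of colon crypt epithelial cells was sequenced from 18 libraries in 6 groups of 3. Per the labels and the study's methods, the authors aligned stranded mRNA reads with STAR to mm10 and deposited raw gene counts per library in 1 table; versions and the strand setting are not given in the sources used here. Columns were assigned to libraries by the column number in each description. Libraries came from individual mice per the study, and whether mice of a group shared a cage or litter is not given. The members and lists were chosen with earlier results of these data known.

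Genes were tested with the DESeq2 1.42.0 Wald test (R 4.3.3, with the package's default scaling and filters and no shrinkage), each comparison on its own 6 libraries and each interaction on 12, as the study used DESeq2 with an adjusted p under 0.01. Levels are counts divided by size factors over all 18 libraries. All 77 genes were tested in every fit. The scripts were tested on simulated data. edgeR 4.0.16 (quasi-likelihood), other size factors, no filtering, replicate block, library total or sex as a term, 1 fit of all libraries and leaving out libraries were alternatives. Named genes were up to 6 called per comparison by adjusted p, the 4 called most often, the 4 with the smallest changes, the 3 highest and 3 lowest by mean, some fixed by role, and up to 3 called genes of the other lists per comparison. Gene positions are from GENCODE M21 and promoters from RefSeq.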

Additional observations from a re-analysis of the deposited data

How the results depend on the processing

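No called value changed direction under any alternative, but the calls depended on the method. For WT CONV against WT GF (6 called), edgeR, the replicate block, the library total as a term and sex as a term each called 0, and 1 fit of all 18 libraries called 11; leaving out 1 library gave 0 (without WT GF replicate 1, among others) to 10 (without WT CONV replicate 3). For WT GF-Colonized against WT GF (11 called), edgeR and the sex term called 0, the library total term 1, the replicate block 7 and 1 fit of all libraries 6, and leaving out 1 library gave 3 (without WT GF-Colonized replicate 1) to 15 (without WT GF replicate 2). For Ern2-/- CONV against Ern2-/- GF-Colonized (0 called), library totals as size factors gave 2, and leaving out 1 library gave 0 to 7. For Ern2-/- CONV and Ern2-/- GF-Colonized against Ern2-/- GF, leaving out 1 library gave 0 to 1 each, and for the other comparisons and both interactions 0 to 0. The cause of these changes was not tested. Apart from edgeR, no share of all genes called is given for the alternatives, so their counts of members are not set against a background. The same holds for every count of members at an unadjusted or adjusted p under 0.05. The replicate numbers pair nothing that the labels name, and in no comparison did every same-numbered pair of libraries correlate above 0.1, with 1 to 3 of 3 best matched to their own number.

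The median log2 fold change kept its sign in both WT comparisons with WT GF under every alternative, from 0.24 to 0.39 for WT CONV and from 0.21 to 0.35 for WT GF-Colonized. Small medians in Ern2-/- mice did change sign: for CONV against GF to −0.10 with the library total as a term and −0.17 without the libraries with Ern2 in the WT range (1 germ-free library left), and for CONV against GF-Colonized to −0.03 with library totals as size factors or as a term. For CONV between the genotype labels it turned to 0.06 and 0.03 without Ern2-/- CONV replicates 1 and 2. The libraries with the fewest counts, 7084267 and 5865619, are both Ern2-/- CONV, which limits the precision of counts there.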
